A study of Triticum aestivum with 18 samples.

Results

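The comparison described here sets roots of nitrogen-starved wheat directly against roots of sulfur-starved wheat. It rests on 6 of the 18 arrays of the series, the 3 titled as low nitrogen fertilization (low N) and the 3 titled as no sulfate fertilization (low S), chosen by their titles alone. No control array entered the contrast. Every group was root tissue of hexaploid bread wheat (Triticum aestivum, cultivar Hereward) taken at booting, when the ear swells inside the flag leaf sheath, in 2011 from continuous wheat on the Broadbalk experiment at Rothamsted. Low N roots came from land where the protocol dates the withdrawal of nitrogen fertiliser to 1843, although the title says low and not absent nitrogen. Low S roots came from land without sulfur fertiliser since 2000. The other 12 arrays, 3 each of roots low in K, Mg or P and of roots with full nutrient supply (control), served as background for levels and for the estimate of spread. The design text gives a total of 12 samples, whereas 18 arrays were present and used. It does not say how many plots stood behind each treatment, and the 3 samples of a group may all come from 1 plot. The p-values therefore measure the spread among samples within groups, pooled over all 6 groups, and not a spread among plots. Effects of the plot and of the treatment cannot be told apart.

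Roots take up nitrate, ammonium and sulfate through membrane transporters. Nitrogen is built into glutamine and glutamate, the donors for the other amino acids and for nucleotides, and it can be moved out of roots and leaves in reused amino acids. Sulfate is reduced to sulfide and joined to O-acetylserine to give cysteine, the source of methionine and of glutathione. Cysteine synthesis needs both elements, so the supplies of nitrogen and sulfur are linked in plant metabolism.

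One Affymetrix Wheat Genome array was used per sample. The unit is the deposited MAS5 intensity, a linear brightness per probe set, and differences are given on the log2 scale as low N minus low S with their standard error (SE). A negative difference therefore means less signal in low N roots. Of 61179 wheat probe sets, 34255 (56%) reached the median of the array on 3 or more of the 18 arrays and were tested. Adjusted p-values are from limma, two-sided, with Benjamini-Hochberg adjustment over all 34255, and those with an adjusted p under 0.05 are named called. The platform annotation named a gene for 961 tested probe sets (656 genes), most of them only by a running LOC number for which no role is annotated, so most of the difference lies in probe sets without a gene name. Brightness depends on the probes, so levels are not compared between genes.

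The 6 arrays separated by treatment on the first principal component, which held 38.2% of their variance. Low N arrays lay at 40.1 to 47.1 on it and low S arrays at -63.4 to -22.7, with low S array 2 nearest to low N. Correlations of log2 intensity were 0.969 to 0.972 among low N arrays, 0.970 to 0.972 among low S arrays and 0.952 to 0.966 between the groups. The typical spread was alike, with a median SD over probe sets of 0.167 log2 in low N and 0.172 in low S. Array medians were 60.1 to 61.1 in low N and 65.2 to 72.4 in low S, although the trimmed mean was 500.0 on every array, so dim probe sets read lower in low N as a class. The ratio of the ubiquitin control probe sets at the 5′ and 3′ ends, a check of RNA integrity, was 1.23 to 1.31 in low N (median 1.27) and up to 1.24 in low S (median 1.21). Other control genes were less even. The same ratio was 0.060 to 0.071 in low N and 0.048 to 0.065 in low S for G6PDH, and 0.67 to 2.18 and 1.09 to 1.40 for EF1A. In a separate fit of the 25 wheat control probe sets, 10 had a limma p under 0.05 before adjustment. In the main fit 7865 of the 34255 tested probe sets did. All of the 10 control sets were lower in low N except 18S rRNA, which was higher by 0.37 log2. Only the actin 3′ set was called in the fit of control sets, at -1.15 log2 (limma adjusted p = 0.0493). The only root marker with a tested probe set, the malate channel gene ALMT1, read 121 to 149 in low N and 21.0 to 121 in low S.

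Low N and low S roots differed at 1786 of 34255 probe sets (5.21%). Of these, 812 were higher in low N (2.37% of those tested) and 974 were lower (2.84%). The falls were the larger changes: 332 of the 974 lower probe sets (34.1%) differed by more than 2-fold and 85 by more than 4-fold, against 40 of the 812 higher ones (4.93%) and 6. The median difference was -0.78 log2 among the lower probe sets and 0.48 log2 among the higher ones. The higher probe sets were also brighter, with a median intensity of 1266 against 624 for the lower ones. The 3 low N arrays did not overlap the 3 low S arrays at 10968 probe sets (32%), 5514 higher (16.1%) and 5454 lower (15.9%), and this held for 1781 of the 1786 called ones. The list has a soft edge: the last probe set inside the threshold had an adjusted p of 0.049986 and the first outside it 0.0500294.

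**Figure D1:**
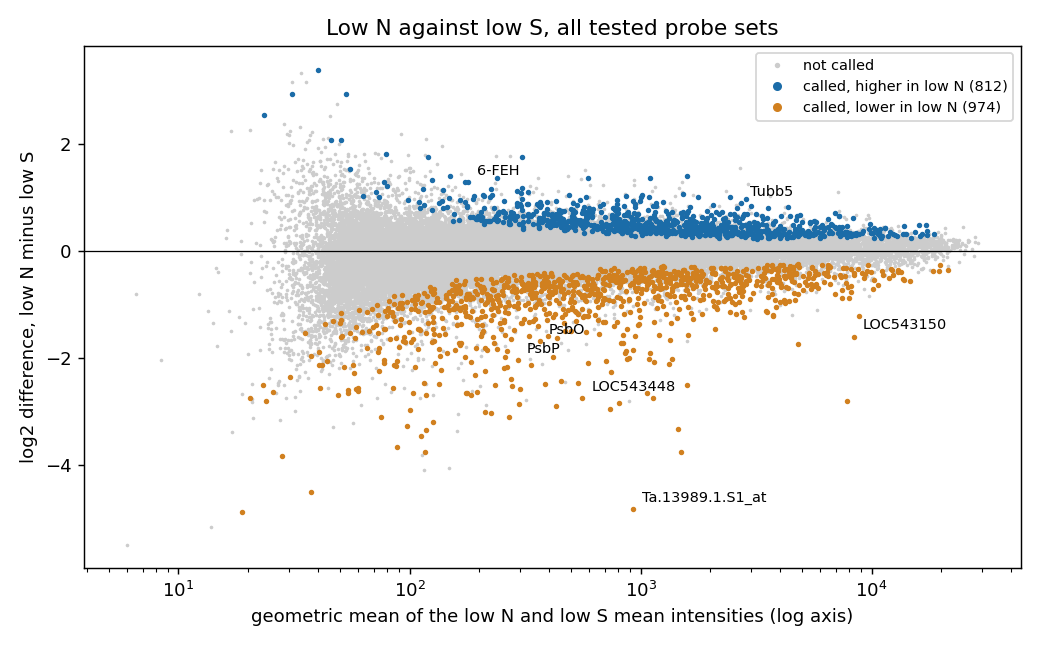
Log2 difference in intensity, low N minus low S, against the mean intensity of both groups on a log axis, 1 point for each of the 34255 tested probe sets. Blue points are the 812 called higher in low N and orange points the 974 called lower, and the lower ones reach further from 0.

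The array intensity itself moved with the direction of the calls. The tested probe sets were split by mean intensity into 4 classes of equal size. In the dimmest class 17 were called higher and 81 lower in low N, and the median difference there was -0.17 log2. In the brightest class 416 were called higher and 371 lower, with a median difference of 0.04 log2. After quantile normalization, which equalises the arrays' distributions, the dimmest class held 47 higher and 51 lower calls. Over all 4 classes that scaling called 1036 higher and 1042 lower, nearly equal numbers, and no called probe set was called in the opposite direction. The falls were still the larger changes after it, with 71 higher and 265 lower calls past 2-fold.

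Most tested genes of the photosynthetic apparatus had less signal in low N than in low S roots. In leaves, photosynthetic proteins hold a large share of the plant's nitrogen. Whether that bears on the difference in roots was not tested. Of 6 annotated photosynthesis genes 4 were tested, each on its brightest probe set, and 3 fell, 0 rose and 1 did not pass. Their median difference was -1.54 log2, against 0.05 over all 656 annotated genes and -0.01 over all tested probe sets. Counting every tested probe set of the list, 5 of 11 were lower, against 2.84% of all tested probe sets. A gene can pass the filter through its low S arrays alone, so the counts over tested members are a description. In whole roots, fewer cells of a type and less RNA per cell cannot be told apart.

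PsbP encodes an extrinsic subunit of photosystem II, where water is split to oxygen. Its brighter probe set, Ta.85.1.S1_at, read 156, 142 and 127 in the 3 low N arrays and 822, 388 and 628 in the 3 low S arrays. All low N arrays lay below all low S arrays, at a mean of 141 against 613. The difference was -2.05 ± 0.35 log2 (SE; limma adjusted p = 0.00544), or 4.15-fold. The second PsbP probe set, TaAffx.120874.1.S1_x_at, read 54.2, 54.3 and 38.8 in low N and 313, 186 and 178 in low S. It also showed no overlap and fell by 2.17 ± 0.35 log2 (limma adjusted p = 0.00389). PsbP had a mean intensity on Ta.85.1.S1_at of 448 in low K, 460 in low Mg, 365 in low P and 326 in control roots, between the low N and low S means in each case.

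PsbO encodes the manganese-stabilising subunit of the same complex. It read 181, 220 and 195 in low N and 998, 462 and 566 in low S, with no overlap. It was lower in low N than in low S by 1.69 ± 0.39 log2 (limma adjusted p = 0.0222). Control roots read 168, 465 and 345 for PsbO, so control array 1 lay below all 3 low N arrays. Low N minus control was -0.60 log2 and low S minus control 1.09 log2, and neither passed (limma adjusted p = 0.588 and 0.262). PsbO is named with a limit: low S array 1 was far above the other low S arrays, and without it the adjusted p was past the threshold, as it also was without low S array 3, low N array 1 or low N array 3.

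The petC gene encodes the Rieske iron-sulfur protein of the cytochrome b6f complex, which passes electrons between the photosystems. It read 132, 126 and 117 in low N and 472, 261 and 282 in low S. It was lower in low N than in low S by 1.38 ± 0.38 log2 (limma adjusted p = 0.0435). The call was lost under 11 of the 17 other settings tried, among them each fit without 1 of the 6 arrays. For petC low N minus control was -0.59 log2 and low S minus control 0.79 log2, and neither passed (limma adjusted p = 0.578 and 0.380). The low N arrays were close together and the low S arrays were not, and low S array 1 stood highest for all 3 of PsbP, PsbO and petC.

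The chloroplast gene rbcl, which encodes the large subunit of Rubisco, the enzyme that fixes carbon dioxide, behaved differently on different probe sets. Its brightest probe set, Ta.24976.1.S1_x_at, read 20728, 18497 and 18314 in low N and 23671, 20836 and 20152 in low S. The groups overlapped there, and the difference of -0.17 ± 0.12 log2 did not pass (limma adjusted p = 0.438). Of its 7 tested probe sets only the dim TaAffx.128896.17.S1_s_at was called, at 51.3, 61.2 and 28.2 in low N and 169, 91.0 and 176 in low S (-1.64 ± 0.46 log2, limma adjusted p = 0.0482). That call was lost under 9 of the 17 other settings, quantile normalization and log2(intensity + 16) among them. The rbcl set TaAffx.128414.181.S1_at lay just outside the threshold, at -0.88 log2 with a limma adjusted p of 0.0507.

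The other photosynthesis genes were too dim to test. PRK, the phosphoribulokinase of the Calvin cycle, read 8.50, 5.59 and 8.91 in low N and 111, 46.4 and 41.8 in low S, and was at or above the median on 1 of 18 arrays. FBP, a fructose bisphosphatase of the same list, read 1.88, 3.80 and 5.03 on Ta.439.1.S1_at in low N and 22.0, 45.2 and 27.2 in low S. Values this low cannot be separated from background, and they received no test. In all, 25 of the list's 36 probe sets were left untested, most of them for rbcl.

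Summed over PsbO, PsbP and petC, the markers of green tissue stood at 439 to 488 in low N and 1110 to 2292 in low S, against 550 to 989 in control roots. They reached 698 to 1371 in low K, 1015 to 1425 in low Mg and 517 to 1384 in low P. On this sum all 3 low N arrays lay below every other array of the series. With rbcl, the other tested marker and by far the brightest, added, the sum was 18754 to 21197 in low N and 21627 to 25963 in low S. It was 16947 to 23708 in low P and 21033 to 26554 in low Mg, so low N no longer lay below every other array. None of these markers was at 0 in any group, but untested dim probe sets also read above 0. Detection calls were not used, so this does not show that the genes were expressed. Whether stem base or other green tissue in the samples had a part in the result was not tested.

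**Figure D2:**
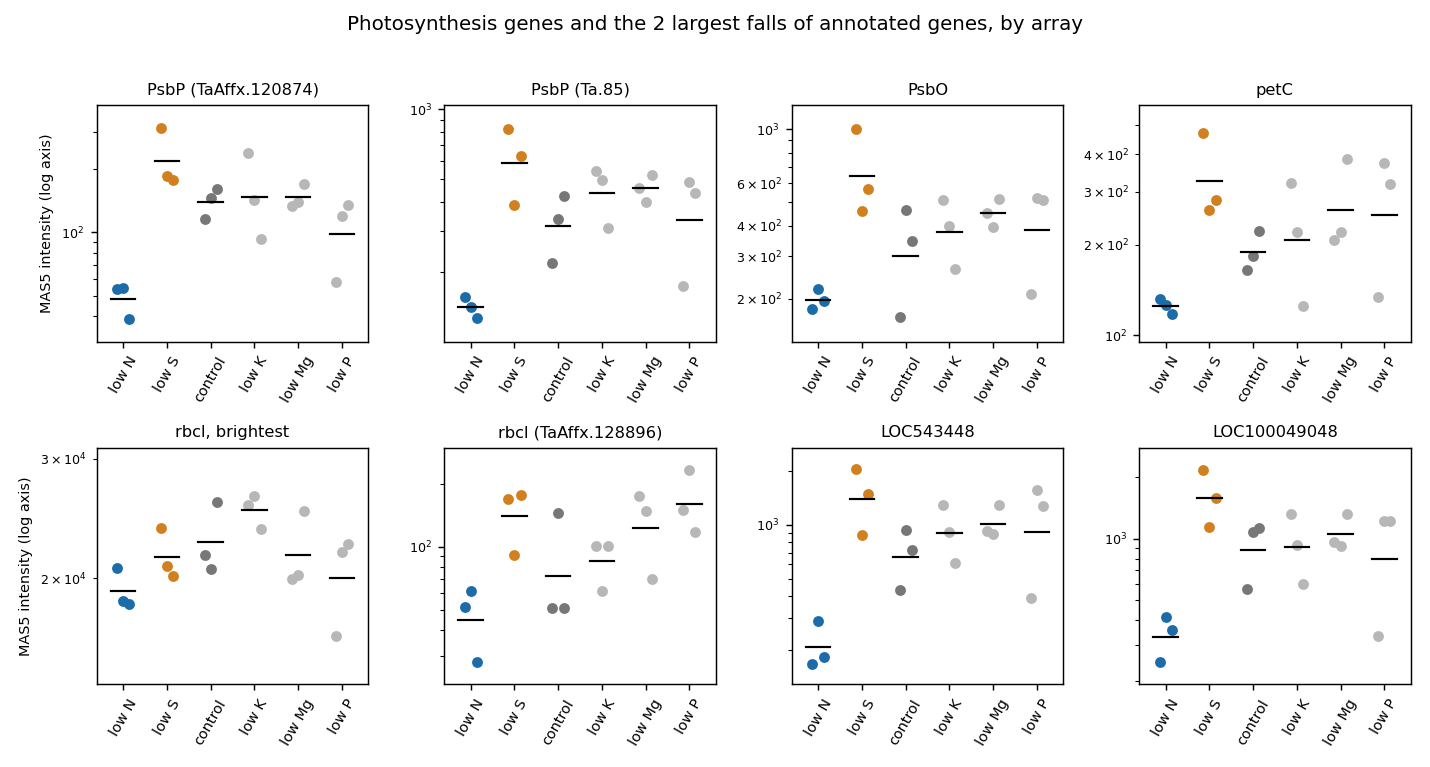
MAS5 intensity by array (log axis) for photosynthesis probe sets and for LOC543448 and LOC100049048, with low N, low S, control, low K, low Mg and low P arrays from left to right. Points are arrays, 3 per group, and lines are geometric means. For PsbP, PsbO and petC the low N arrays lie below all low S arrays, while the brightest rbcl probe set overlaps.

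The largest falls of annotated genes were those of 2 genes known here only by number. LOC543448 read 167, 291 and 182 on Ta.27793.2.S1_x_at in low N and 2066, 874 and 1483 in low S. It fell by 2.75 ± 0.45 log2, or 6.72-fold (limma adjusted p = 0.0044). Its other tested probe set, TaAffx.6140.1.S1_s_at, stood at -0.06 log2 and did not pass, so the probe sets of this gene disagree. LOC100049048 read 248, 411 and 355 in low N and 2172, 1148 and 1593 in low S and fell by 2.26 ± 0.43 log2 (limma adjusted p = 0.00939). For both genes low S array 1 was the highest and low S array 2 the lowest of the low S arrays, the same order as for PsbP on Ta.85.1.S1_at. That order was frequent among large falls: of the 85 probe sets more than 4-fold lower in low N, low S array 1 was the highest low S array in 51 (60%) and low S array 2 the lowest in 60 (70.6%). Over all 974 lower calls low S array 2 was again most often the lowest, in 549 (56.4%), but the highest was low S array 3 in 538 (55.2%) and low S array 1 in 312 (32.0%).

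LOC543150 was among the brightest genes with a large fall, and its pattern over the series was another one. Its probe set Ta.21350.2.S1_at read 3802, 3435 and 7564 in low N and 13906, 11561 and 17406 in low S, with no overlap, and it fell by 1.61 ± 0.26 log2 (limma adjusted p = 0.00375). Control roots averaged 16845 for LOC543150, above the low S mean of 14291, and the low K mean was 20011. Its second probe set, Ta.30711.1.S1_x_at, fell by 0.46 ± 0.13 log2 (limma adjusted p = 0.0446). LOC543390 lay outside the rule for names and was named after its values had been seen. It read 4174, 4776 and 4822 in low N and 7608, 7007 and 7126 in low S. The fall was 0.66 ± 0.09 log2 (limma adjusted p = 0.0012).

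Among the other named falls, LOC543085 fell by 1.66 log2, LOC100037553 by 1.56, LOC100037649 by 1.34, LOC543097 by 1.22, LOC606366 by 0.93 and LOC543023 by 0.85. Under the 17 other settings these calls were lost 7 times for LOC543085 and LOC100037649, 6 times for LOC606366, 4 for LOC100037553, 2 for LOC543023 and 1 for LOC543097. LOC606366 had 4 tested probe sets, of which 1 was called. UBC1, a ubiquitin-conjugating enzyme gene, had 1 of 3 probe sets called: TaAffx.51048.1.S1_at read 289, 324 and 310 in low N and 579, 454 and 758 in low S (-0.93 ± 0.26 log2, limma adjusted p = 0.0468). Gli-8, a gliadin of the grain storage proteins, read 40.9, 37.7 and 55.4 in low N and 120, 108 and 117 in low S. It fell by 1.38 ± 0.36 log2 (limma adjusted p = 0.0354), at intensities near the array median. The calls of Gli-8 and UBC1 were each lost under 7 of the 17 other settings, for Gli-8 in all 6 fits without 1 array. Of the 6 tested grain genes it was the only one called, and the list's median was -0.57 log2.

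The sulfur side of the comparison is thinly annotated on this array, with 2 tested genes. Both stood lower in low N, that is, higher in low S roots, and both differences were small. On the brightest probe set of each gene, PCS1 was called lower and cys1 was not, with a median of -0.37 log2. The cys1 gene, whose symbol is that of cysteine synthase but for which the annotation gives no description, read 8025, 7191 and 8068 on Ta.99.1.S1_x_at in low N and 8663, 10458 and 10582 in low S. It fell by 0.35 ± 0.09 log2 (limma adjusted p = 0.0394). Control roots read 10252, 9193 and 11451 for cys1 on this probe set, so the low S arrays overlapped the control and the low N arrays lay below it. On its brighter probe set, Ta.99.1.S1_at, cys1 stood at -0.26 ± 0.09 log2 and did not pass (limma adjusted p = 0.112).

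PCS1 encodes phytochelatin synthase, which makes metal-binding peptides from glutathione. It read 665, 738 and 515 in low N and 869, 941 and 828 in low S, with no overlap, and fell by 0.47 ± 0.13 log2 (limma adjusted p = 0.049). PCS1 averaged 705 in control roots, between the low N mean of 640 and the low S mean of 879, and it was 985 in low P. The cys1 and PCS1 calls are weak, being lost under 9 and 10 of the 17 other settings, and so is that of GSTZ1, lost under 9. GSTZ1, a zeta-class glutathione transferase gene, had 1 of 3 probe sets called, TaAffx.56524.1.S1_at, at 1650, 1979 and 1858 in low N and 2162, 2233 and 2494 in low S (-0.33 ± 0.09 log2, limma adjusted p = 0.0454). Its brightest probe set did not pass. No gene of the nitrogen list (nitrate and ammonium transporters, nitrate reductase, glutamine synthetase and their kind) was annotated, so the nitrogen side has no named member here.

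Among called, annotated probe sets the largest difference in the other direction was in a fructan gene. 6-FEH encodes fructan 6-exohydrolase, which releases fructose from fructans, the storage polymers of temperate grasses. On Ta.9641.1.A1_a_at it read 328, 239 and 275 in low N and 138, 107 and 100 in low S. The groups did not overlap, and 6-FEH was higher in low N by 1.29 ± 0.23 log2 or 2.44-fold (limma adjusted p = 0.00598). Control roots averaged 138 for 6-FEH, and the means were 105 in low K, 122 in low Mg and 126 in low P, so the 5 other groups lay together and low N stood above them. Its second probe set, Ta.30950.1.A1_x_at, differed by 1.08 log2 and did not pass (limma adjusted p = 0.142). The related 1-FEH, a fructan 1-exohydrolase gene, stood at -0.14 log2, not called. Of the 7 tested genes of the carbohydrate list only 6-FEH was called, and the list's median was -0.14 log2.

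The beta-tubulin gene Tubb5, whose product is a subunit of microtubules, was higher in low N on all 4 of its probe sets, by 0.65 to 1.00 log2. All 4 names start with Ta.214, the number of 1 transcript cluster, so they are not independent readings. On Ta.214.1.S1_x_at Tubb5 read 3711, 3789 and 3658 in low N and 2006, 2129 and 1867 in low S. The rise was 0.90 ± 0.11 log2 (limma adjusted p = 0.000647). For Tubb5 the control mean on that probe set was 3234, nearer to the low N mean of 3719 than to the low S mean of 2000, and the low P mean of 1898 lay below low S. The other 6 genes of the tubulin and actin list, tubb1, tubb2, tubb3, Tubb4, TUBA and the profilin PRO1, were not called on their brightest probe sets, and the list's median was 0.05 log2.

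FKBP70, a peptidyl-prolyl isomerase gene of the protein-folding list, read 8220, 9460 and 9885 in low N and 6662, 6965 and 6303 in low S. It rose by 0.46 ± 0.07 log2 (limma adjusted p = 0.0021). FKBP70 averaged 8309 in control and 8918 in low K roots, near low N, whereas low Mg and low P stood at 6822 and 6017, near low S. The other gene of that list, hsp16.9A, a small heat shock protein, stood at -0.38 log2 and was not called.

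The other named rises were of numbered genes and spanned 0.56 to 1.05 log2. LOC542782 had the largest, 1.05 ± 0.26 log2 (limma adjusted p = 0.0323), followed by LOC606373 at 0.97, a gene with 6 tested probe sets of which 1 was called. LOC543453 read 482, 517 and 466 in low N and 283, 334 and 285 in low S (0.70 ± 0.13 log2, limma adjusted p = 0.00813), and its control mean of 305 was close to low S. The LOC543453 call was lost without low S array 3 and kept under the 16 other settings, whereas that of LOC542782 was lost under 5 and that of LOC606373 under 7, including all 6 fits without 1 array. LOC780610 read 2393, 1895 and 2028 in low N and 1315, 1378 and 1339 in low S (0.64 ± 0.10 log2, limma adjusted p = 0.00358). LOC542884 read 560, 512 and 627 in low N and 336, 391 and 394 in low S (0.60 ± 0.10 log2, limma adjusted p = 0.005). The others were LOC543189 (0.69 log2), LOC543195 (0.65), LOC542825 (0.65), LOC543455 (0.64), LOC778385 (0.63), LOC543244 (0.61), LOC542862 (0.56) and LOC543072 (0.56). Of these 8, LOC543195, LOC778385, LOC542862 and LOC543072 lost the call under 6 to 8 settings and the other 4 only without low S array 3. Beyond the genes named by rule, 32 further annotated probe sets (31 genes) were higher in low N by 0.24 to 0.54 log2, and 20 (19 genes) were lower, by -0.30 to -0.72 log2.

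**Figure D3:**
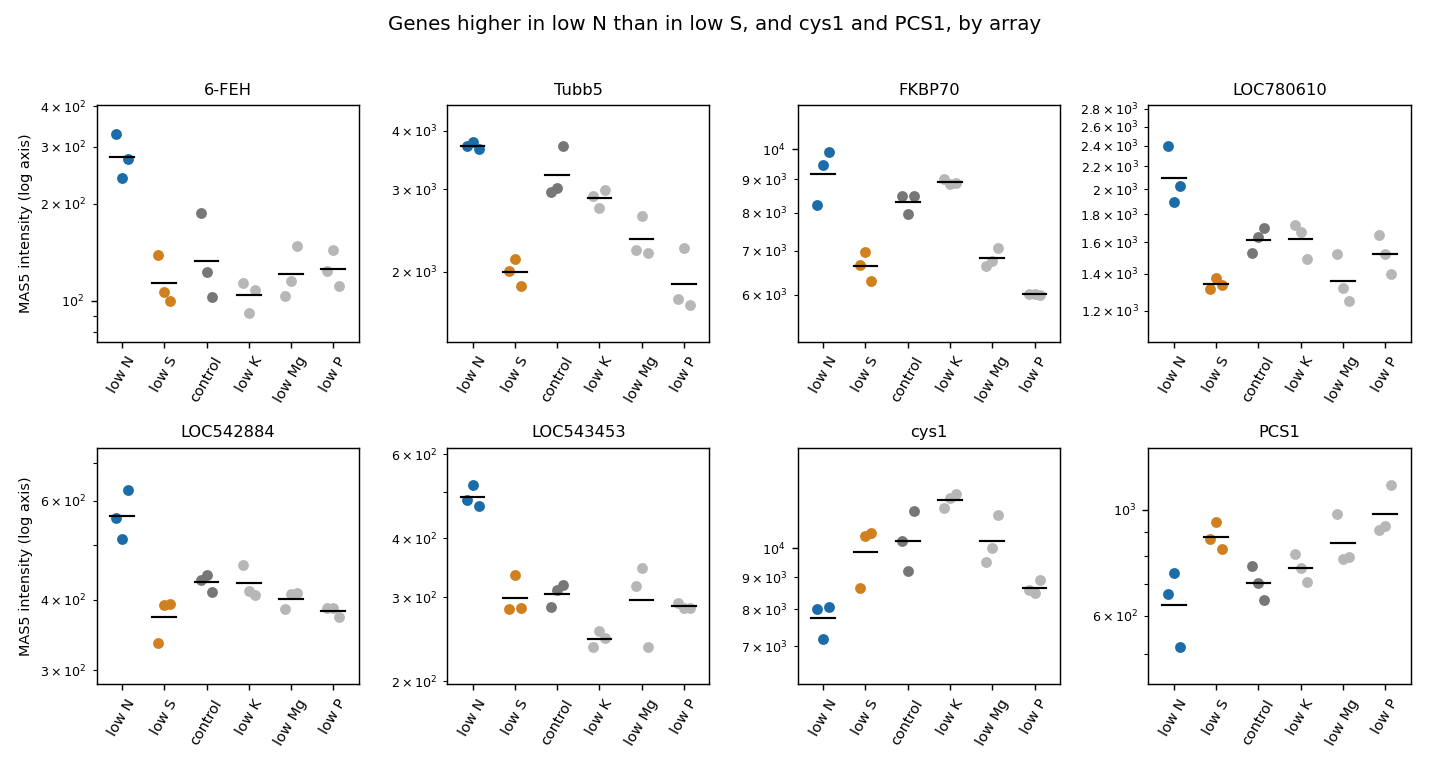
MAS5 intensity by array (log axis) for 6 genes higher in low N and for cys1 and PCS1, which were lower, with low N, low S, control, low K, low Mg and low P arrays from left to right. Points are arrays, 3 per group, and lines are geometric means. 6-FEH and LOC543453 stand above all other groups in low N, while for Tubb5 and FKBP70 the control lies nearer to low N than to low S.

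In the remaining gene lists no member was called, counting each gene on its brightest probe set. These were histones (5 genes, median 0.20 log2), translation (7 genes, 0.16), transport (3 genes, 0.13), late embryogenesis and cold proteins (4 genes, 0.05), methyl cycle enzymes (3 genes, 0.01), oxidative stress genes (4 genes, -0.07), transcription and hormone genes (5 genes, -0.17) and defence genes (2 genes, -0.51). The single metal gene tested, DMAS1, a deoxymugineic acid synthase of iron uptake, stood at -0.02 log2. Over all 656 annotated genes, each on its brightest probe set, 36 were higher and 30 lower. Larger differences that did not pass include ALMT1, at 121, 149 and 126 in low N and 121, 63.3 and 21.0 in low S (1.27 ± 0.45 log2, limma adjusted p = 0.102). PER1, an oxidative stress gene, stood at 1.36 ± 0.44 log2 on Ta.14503.1.S1_at (limma adjusted p = 0.0774) and at -0.07 on its brightest probe set.

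Probe sets without a gene reached larger differences than the annotated ones that were called. Only those at or above the array median on all 3 arrays of the higher group, with no overlap between the groups, are given, which leaves out some larger but dim ones. Ta.13989.1.S1_at read 107, 121 and 326 in low N and 3628, 4277 and 6184 in low S. It fell by 4.82 ± 0.64 log2, or 28.3-fold (limma adjusted p = 0.00115). All other groups were high too for Ta.13989.1.S1_at, with means of 10699 in low K, 3638 in low Mg, 17206 in low P and 9633 in control roots, so low N stood alone at the bottom. Ta.4360.1.A1_at read 6.50, 7.86 and 9.17 in low N and 160, 190 and 182 in low S and fell by 4.51 ± 0.53 log2 (limma adjusted p = 0.0005). Its low N values are of the size of background, so the size of that fall is uncertain.

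In the other direction, Ta.7072.2.S1_at read 115, 114 and 157 in low N and 12.6, 16.8 and 8.50 in low S (3.39 ± 0.82 log2, limma adjusted p = 0.0289). TaAffx.60291.1.S1_at read 155, 104 and 101 in low N and 53.2, 6.06 and 11.2 in low S (2.94 ± 0.78 log2, limma adjusted p = 0.0393), with a control mean of 116, close to the low N mean of 120. Both read near background in low S, so the sizes are uncertain, and each call was lost in 5 of the 6 fits without 1 array.

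Over the 18 arrays Ta.13989.1.S1_at and Ta.4360.1.A1_at followed each other with a Pearson correlation of 0.984 on the log2 scale. The annotated probe set most like Ta.13989.1.S1_at was that of LOC543150 (r = 0.915), followed by LOC100037524 (0.892), LOC543132 (0.841), LOC543390 (0.828) and LOC780635 (0.807). The same 5 genes were nearest to Ta.4360.1.A1_at, led by LOC100037524 (0.893) and LOC543150 (0.889). For Ta.7072.2.S1_at the nearest was LOC543352 (0.854), and for TaAffx.60291.1.S1_at LOC606373 (0.648). These correlations describe the 18 arrays, which share their scaling and group structure.

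The 10 largest called falls without a gene were then taken under the same brightness condition and split by the sign of low S minus control. In 4 of them low S minus control was -1.21 to -0.38 log2, so that low N alone was far down. In the other 6 low S minus control was 0.99 to 1.41 log2, and the control mean lay between the deficiencies. Low N arrays 1 and 3 read below their array medians in all 6, so the sizes of these falls are uncertain. Low P array 1 also read below its array median in all 6. Ta.28363.1.A1_at and Ta.28363.1.A1_x_at, both among those 6, share 1 transcript cluster. None of these low S minus control differences passed (limma adjusted p 0.304 to 0.716), so the split is a description. Among the 10 largest called rises without a gene under the same condition, low S was below the control in all 10, at -2.91 to -0.33 log2. None of those differences passed either, with a lowest limma adjusted p of 0.0970.

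**Figure D4:**
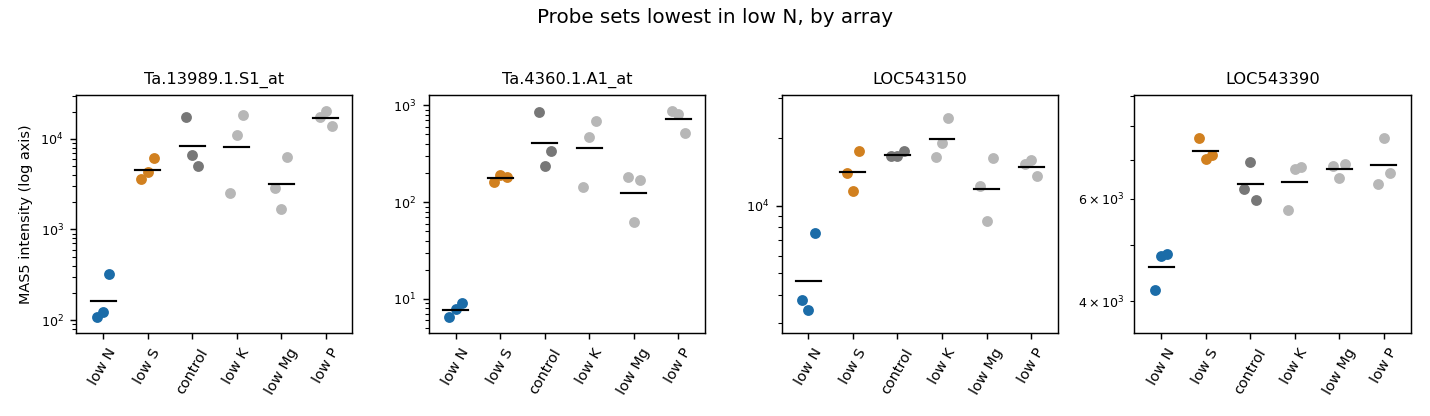
MAS5 intensity by array (log axis) for 2 probe sets without a gene and for LOC543150 and LOC543390, with low N, low S, control, low K, low Mg and low P arrays from left to right. Points are arrays, 3 per group, and lines are geometric means. Low N arrays lie below all arrays of the 5 other groups in each panel.

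The position of the other groups places the difference between its sides. For the 812 higher probe sets the control mean lay between low N and low S in 771 (95%) and was nearer to low N in 54.4%. For the 974 lower ones it lay between in 862 (88.5%) and was nearer to low N in 44.6%. The median differences from control were 0.23 log2 for low N and -0.24 for low S among the higher probe sets, and -0.39 and 0.35 among the lower ones. On these means the control was thus about midway, as the choice of probe sets by a difference between low N and low S favours. The control arrays were not alike, with array medians of 53.6, 68.6 and 54.4. That of control array 2 lay within the low S range (65.2 to 72.4), and the others lay below the low N range (60.1 to 61.1).

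Among these called probe sets, low N was nonetheless the outermost of the 6 groups more often than low S. Low N had the highest mean of all groups in 754 of the 812 higher probe sets (92.9%) and the lowest in 872 of the 974 lower ones (89.5%). Low S had the opposite extreme in 335 (41.3%) and 427 (43.8%). The group that most often lay beyond low S was low P, in 48.4% of the higher and 41.2% of the lower probe sets. Low Mg was nearer to low N in only 13.1% and 12.5%, and low K in 34.1% and 36.7%. No test was made of these shares, since the probe sets were chosen by the same low N and low S arrays. That choice favours outer places for both groups, and the shares over all tested probe sets are not given here.

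Counted across the table, the contrast with low S was intermediate among those of low N. Low N differed at 5527 probe sets from low P (16.1%), at 2413 from low K (7.04%), at 561 from low Mg (1.64%) and at 142 from control (0.415%). Low S differed from control at 6 probe sets (0.0175%), all higher in low S. These contrasts share arrays, and a count of calls does not measure the size of a difference.

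Probe sets of one transcript cluster, read from the shared start of their names, were mostly called in the same direction where more than 1 was called. Of 164 clusters with at least 2 called probe sets, 61 were higher throughout, 101 lower throughout and 2 mixed. Uncalled probe sets of these clusters are not in that count. Probe sets of 1 cluster can read the same transcript, so their common direction is not independent evidence. Probe sets ending in _x_at, _s_at or _a_at, which can hybridise with several related transcripts and with the copies of a gene on the other wheat genomes, were called at 7.07%, 6.65% and 6.29%, against 4.57% for the rest. For PsbP, PsbO, rbcl, LOC543448, Gli-8, 6-FEH, Tubb5 and cys1, among others, some of the probe sets named therefore may report more than 1 gene copy.

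The number of calls depended strongly on single arrays. Without low S array 3 it was 264, without low N array 3 522, without low N array 1 605, without low S array 1 614, without low N array 2 1104 and without low S array 2 1439. In the fit of 18 arrays and in all 6 of these, 233 probe sets were called, 68 higher and 165 lower. Those 233 held 16 annotated probe sets, among them all 4 of Tubb5, both of PsbP and single ones of 6-FEH, FKBP70, LOC543448, LOC100049048, LOC543150, LOC543390, LOC780610 and LOC542884. The remaining pair were LOC542827, higher by 0.49 log2, and LOC780641, which fell by 0.56 log2. Like LOC543390, both were named after their values had been seen.

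**Figure D5:**
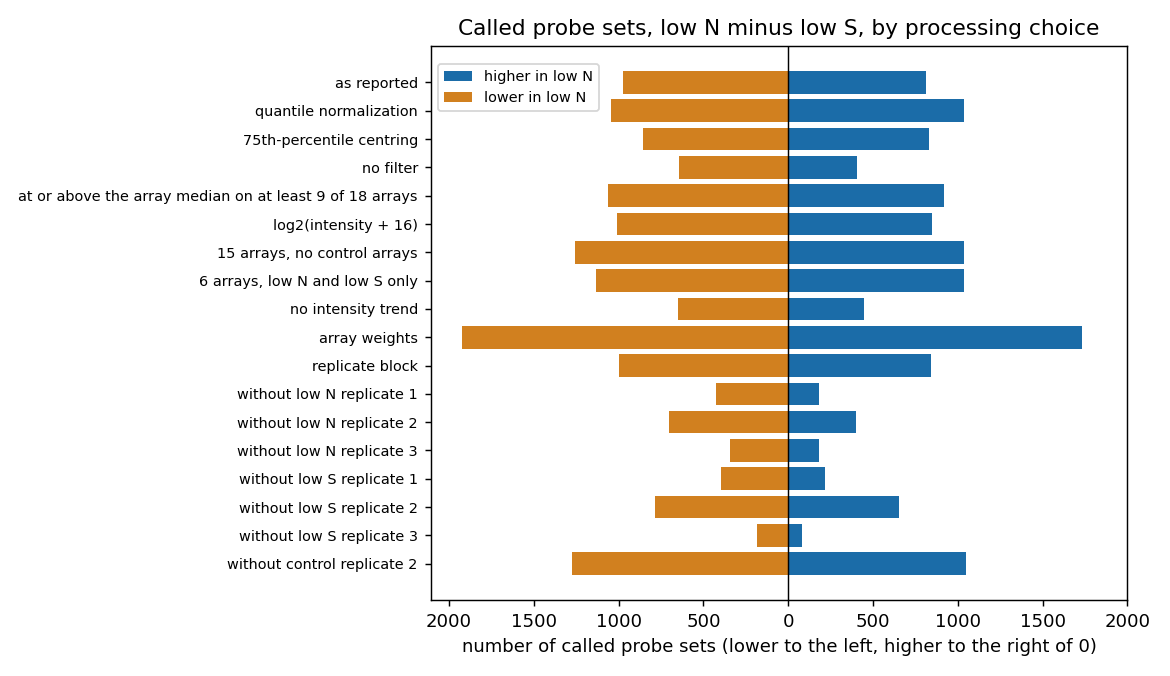
Number of probe sets called in low N minus low S, higher to the right (blue) and lower to the left (orange), for the values as reported and for 17 other processing choices. The count runs from 264 without low S array 3 to 3659 with array weights, and lower calls outnumber higher ones in every setting shown.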

How the data were processed

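RNA of 18 wheat root samples had been hybridised to 1 Affymetrix Wheat Genome array each, from 500 ng of total RNA per the labels' protocols. The authors deposited 1 linear intensity per probe set and array, made with Affymetrix Expression Console and MAS5 per the submitters' processing notes, in versions not given in the sources used here. The trimmed mean (2% at each end) was 500.0 on every array, which shows scaling to a common target, while array medians differed. Detection calls were not used. With 3 arrays a group, their number sets the precision.

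The log2 of each intensity was taken with nothing added. The 111 control probe sets were left out of 61290, as were probe sets below the array median on more than 15 of the 18 arrays. Means of the 6 groups were fitted with limma 3.58.1 in R 4.3.3 (lmFit, eBayes with an intensity trend, 12 residual and 4.39 prior degrees of freedom). The 12 arrays outside the contrast added only to the spread. On simulated data with the size of this comparison (34255 probe sets, 50 changed at each size) 22% of changes of 0.5 log2, 44% of 1, 88% of 2 and 94% of 3 were recovered, with 8 false calls. The simulated noise was independent, without shifts of whole arrays, and fewer probe sets were changed than were called here. These shares and the false calls therefore do not carry over to the measured arrays. Plots were made in Python 3.11.15 with matplotlib 3.10.9.

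Names came from the platform annotation, with 1273 wheat probe sets tied to 1 gene, 0 to several and 59906 to none. Of its 771 genes, 770 matched the RefSeq table of IWGSC CS RefSeq v2.1, used for names only. Named were the 15 largest higher and 15 largest lower called, non-overlapping genes, every called gene with an informative symbol, all members of the nitrogen, sulfur and photosynthesis lists, and the 2 largest unnamed probe sets per direction that were at or above the median on all arrays of the higher group. The comparison, the gene lists and the rule for names were chosen with earlier results of these data known. Alternatives were scaling, filter, added constant, arrays in the fit, trend, array weights, the replicate number as a block and leaving out each array. Same-numbered low N and low S arrays did not deviate together (correlations 0.01, -0.01 and -0.02). The titles give only a replicate number, and such correlations cannot decide whether it pairs the samples, since array noise can hide a pairing. The main fit treated the samples as unpaired.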

Additional observations from a re-analysis of the deposited data

How the results depend on the processing

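The counts of called probe sets (1786, of which 812 higher and 974 lower in low N) stayed within 1.5 times under quantile normalization (2078), 75th-percentile centring (1684), a filter of at least 9 arrays (1980), log2(intensity + 16) (1855), and fits of 15 arrays without the controls (2293) or of the 6 arrays alone (2169). They moved to 1044 (403 higher, 641 lower) with no filter, to 1098 (450 and 648) with no intensity trend and to 3659 (1734 and 1925) with array weights. Leaving out 1 array gave 264 to 1439 calls, 82 to 653 higher and 182 to 786 lower. The cause of these changes was not tested, except that each such fit has fewer samples and the unfiltered one tests 61179 probe sets. No probe set called in the fit of 18 arrays was called in the opposite direction under any setting. With the replicate block the count was 1844 (844 higher, 1000 lower), and the check of pairing gave correlations of 0.01, -0.01 and -0.02. Without control array 2, an alternative added after the data had been seen, it was 2325 (1050 and 1275). The 49 named probe sets gave 829 values under alternatives, of which 665 kept direction and side of the threshold, 152 lost the call, 9 gained it and 3 changed sign. Those 3 were all of the uncalled rbcl probe set TaAffx.128414.1.A1_x_at (-0.02 log2), at 0.0026 with 75th-percentile centring, 0.06 without low N array 2 and 0.07 without low S array 1, within a range of -0.0986 to 0.0734 over the fits without 1 array. The photosynthesis median ran from -1.73 to -1.24 log2 over the alternatives and the sulfur median from -0.40 to -0.30. Probe sets near the array median cannot be separated from background, which limits the dim ones named.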
